A study of Mus musculus with 3 samples.

Results

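The nuclear genes of respiratory chain complex I were followed in tibialis anterior muscle, a fast muscle of the lower hind limb, of tumour-bearing and tumour-free mice. Members were the rows of the deposited expression table whose annotated symbol starts with Nduf, without pseudogenes marked -ps, which gave 43 genes of the 25206 in the table. Of these, 33 encode subunits of complex I, 8 are assembly factors named Ndufaf, and 2 carry the Nduf name without counting as complex I subunits: Ndufa4, a subunit of complex IV, and its paralogue Ndufa4l2.

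The study asked what FoxP1, a transcriptional repressor, does to muscle during cancer cachexia, the wasting that accompanies a tumour. There were 3 groups of male CD2F1 mice, and each group was measured on 1 array that held RNA pooled from 3 mice. In C26 FoxP1-shRNA mice, colon 26 adenocarcinoma cells had been placed under the skin and the muscle carried an AAV9 vector with a short hairpin RNA against FoxP1 and mCherry. C26 scrambled-shRNA mice bore the same tumour, and their muscle carried AAV9 with a scrambled hairpin and GFP. Sham scrambled-shRNA mice, called Sham from here on, received saline in place of tumour cells and the same scrambled vector. All muscles had been injected with vector at 10 weeks of age, 2 weeks before the tumour cells, and were taken 26 days after inoculation. The hairpin and the fluorescent marker therefore differ together between the C26 groups, and no array of tumour-free muscle with FoxP1-shRNA was analysed here.

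Complex I is the entry point for electrons from NADH into the mitochondrial respiratory chain. Its matrix arm binds NADH and passes electrons along a chain of iron-sulphur clusters to ubiquinone, and its membrane arm pumps protons across the inner membrane. A core conserved from bacteria does the catalysis and is encoded partly in the nucleus and partly in mitochondrial DNA, while a larger number of supernumerary subunits surround and stabilize it. Assembly factors help to build the complex from preformed modules and are not part of the finished enzyme. Oxidative fibres are rich in this enzyme, and the genes for its nuclear subunits are known to respond to the coactivators and nuclear receptors that control mitochondrial content.

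The arrays measured 6 of 7 core subunits listed, 9 of 9 supernumerary subunits of the matrix arm, 8 of 9 of the inner part of the membrane arm and 9 of 11 of its distal part, together with the acyl carrier subunit Ndufab1. The remaining listed subunits and the subunits encoded by mitochondrial DNA were not analysed here. Values are log2 expression values after Robust Multiarray Average (RMA), so that a difference of 1 is a 2-fold difference. Each gene is compared only with itself across arrays, except where the markers of a cell type are summed further on. With 1 array per group there is no spread between replicates against which to set a difference, no test was possible, and a fixed size of 2-fold was used for counting. Median log2 values over all genes were 3.99 in C26 FoxP1-shRNA, 4.05 in C26 scrambled-shRNA and 4.06 in Sham, and the highest values were 12.25 in C26 FoxP1-shRNA, 12.45 in C26 scrambled-shRNA and 12.39 in Sham. All 43 members lay above the array median in Sham and 41 on each C26 array, the exceptions being Ndufb3 and Ndufaf2. The target of the hairpin, Foxp1, had log2 values of 6.52 in C26 FoxP1-shRNA, 7.31 in C26 scrambled-shRNA and 6.41 in Sham. Foxo1, listed with it as a check, had 8.12 in C26 FoxP1-shRNA, 8.84 in C26 scrambled-shRNA and 6.46 in Sham. In C26 FoxP1-shRNA, Foxp1 was thus 1.73-fold and Foxo1 1.65-fold below C26 scrambled-shRNA, so that the fall was not particular to the target. The muscle fibre markers Acta1 and Myh4 (skeletal actin and the fast IIb myosin heavy chain) were above 12 on all 3 arrays, near the top of the range.

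In the first comparison, which asks how the tumour alters the muscle, 42 of the 43 members were below Sham in C26 scrambled-shRNA and 1, Ndufa7, was higher. A lower value was found for 46.0% of all genes. At the size of 2-fold, 13 members (30.2%) were lower and 0 higher, against 4.33% of all genes lower. The median log2 difference was -0.80 over the members and -0.90 over the 33 subunits, against 0.03 over all genes. Members ranged between -2.57 for Ndufb3 and 0.08 for Ndufa7. The RNA came from whole muscle, so that fewer muscle fibres or mitochondria-rich fibres in the sample and less RNA per fibre cannot be told apart.

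**Figure D1:**
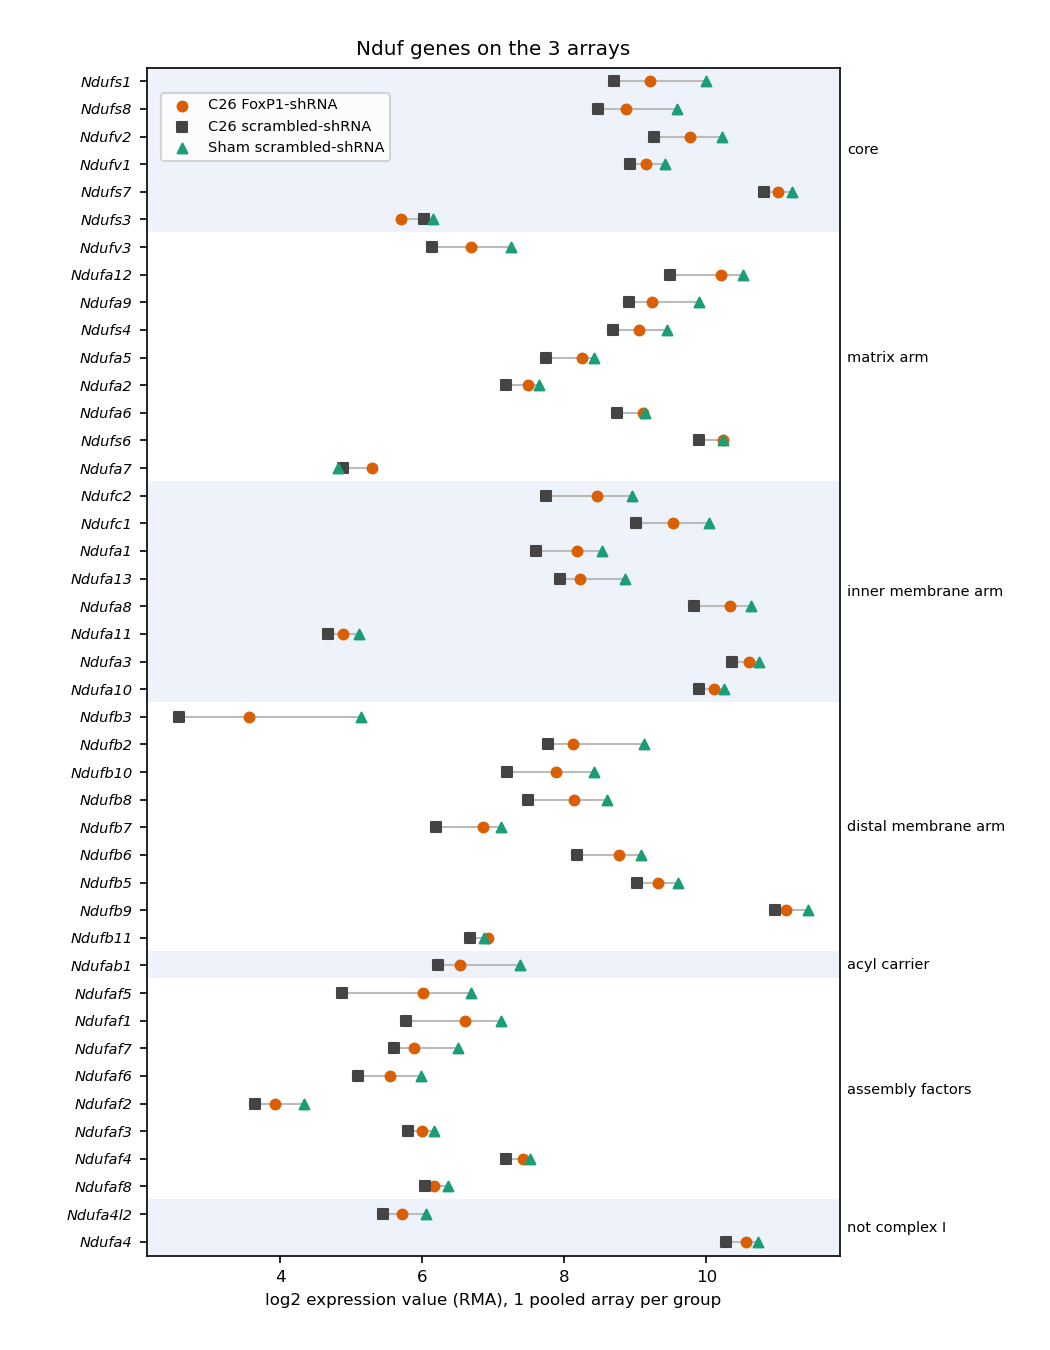
Log2 expression value (RMA, x axis) of each of the 43 Nduf genes on the 1 pooled array of C26 FoxP1-shRNA (circles), C26 scrambled-shRNA (squares) and Sham scrambled-shRNA (triangles), in groups by role. For 42 genes the square lies left of the triangle, and the widest gap is that of Ndufb3, at 2.57 in C26 scrambled-shRNA and 5.14 in Sham.

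Among the core subunits, all 6 were below Sham in C26 scrambled-shRNA, 2 of them by 2-fold or more, and the median log2 difference was -0.72. Ndufs1, the large iron-sulphur subunit that takes electrons early in the chain, had log2 values of 9.21 in C26 FoxP1-shRNA, 8.70 in C26 scrambled-shRNA and 10.00 in Sham. It was thus 2.46-fold below Sham in C26 scrambled-shRNA, and the C26 FoxP1-shRNA array lay between the others, 1.42 times C26 scrambled-shRNA. Ndufs8, an iron-sulphur subunit nearer to the quinone site, had 8.86 in C26 FoxP1-shRNA, 8.47 in C26 scrambled-shRNA and 9.59 in Sham, the same order with a 2.16-fold lower value in C26 scrambled-shRNA than in Sham. Ndufv2, which carries an iron-sulphur cluster of the NADH-binding module, had 9.77 in C26 FoxP1-shRNA, 9.26 in C26 scrambled-shRNA and 10.22 in Sham, just short of 2-fold with a log2 difference of -0.96. Ndufv1, its partner in that module and the subunit that binds NADH and flavin, differed less, at -0.49. Ndufs7, which holds the last cluster before ubiquinone, was at -0.39. Ndufs3, a core subunit of the quinone-reducing module, had 5.70 in C26 FoxP1-shRNA, 6.03 in C26 scrambled-shRNA and 6.15 in Sham. It was the only member whose value in C26 FoxP1-shRNA was below that in C26 scrambled-shRNA, with a log2 difference of -0.32.

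Of the 9 supernumerary subunits of the matrix arm, 8 were below Sham in C26 scrambled-shRNA, 2 by 2-fold or more, with a median log2 difference of -0.68. Ndufv3, a small subunit of the NADH-binding module, had log2 values of 6.69 in C26 FoxP1-shRNA, 6.14 in C26 scrambled-shRNA and 7.25 in Sham, and was 2.17-fold below Sham in C26 scrambled-shRNA. Ndufa12, which sits where the NADH-binding and quinone modules meet, had 10.21 in C26 FoxP1-shRNA, 9.49 in C26 scrambled-shRNA and 10.52 in Sham. The C26 FoxP1-shRNA value of Ndufa12 lay nearer to Sham (log2 difference -0.31) than to C26 scrambled-shRNA (0.72). Its like-named pseudogene Ndufa12-ps may share probes with it, and its value is uncertain for that reason. Ndufa9, a subunit of the quinone module that holds a nucleotide cofactor, missed 2-fold narrowly at 1.98-fold below Sham in C26 scrambled-shRNA. Ndufs4, whose loss causes a Leigh-like encephalopathy in mice, was at a log2 difference of -0.76, Ndufa5 at -0.68, Ndufa2 at -0.47, Ndufa6 at -0.40 and Ndufs6, a zinc-binding subunit, at -0.33. Ndufa7 had 5.29 in C26 FoxP1-shRNA, 4.89 in C26 scrambled-shRNA and 4.81 in Sham. It ran in an order of its own, with the highest value in C26 FoxP1-shRNA and the lowest in Sham, although the difference of 0.08 between C26 scrambled-shRNA and Sham is small and turned below 0 when the arrays were centred on reference genes.

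In the inner part of the membrane arm, next to the matrix arm, all 8 subunits measured were below Sham in C26 scrambled-shRNA, 2 by 2-fold or more, with a median log2 difference of -0.85. Ndufc2, a membrane subunit of this region, had log2 values of 8.46 in C26 FoxP1-shRNA, 7.74 in C26 scrambled-shRNA and 8.96 in Sham, which made it 2.33-fold below Sham in C26 scrambled-shRNA. Its neighbour in the complex, Ndufc1, had 9.53 in C26 FoxP1-shRNA, 9.0 in C26 scrambled-shRNA and 10.04 in Sham, or 2.06-fold lower. Both thus had the same order of arrays, with C26 FoxP1-shRNA in the middle. Ndufa1, an X-linked subunit, was at a log2 difference of -0.92 between C26 scrambled-shRNA and Sham, and Ndufa13, also known as the cell death regulator GRIM-19, was at -0.91. Ndufa8, which faces the intermembrane space, was at -0.80. The 3 subunits with the smallest gaps were Ndufa11 (-0.44), Ndufa3 (-0.39) and Ndufa10 (-0.36).

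The distal part of the membrane arm had the lowest median of the role groups with more than 1 gene. All 9 subunits measured were below Sham in C26 scrambled-shRNA, 4 by 2-fold or more, and the median log2 difference was -0.92. Ndufb3, a small membrane subunit, had log2 values of 3.56 in C26 FoxP1-shRNA, 2.57 in C26 scrambled-shRNA and 5.14 in Sham. It was 5.93-fold below Sham in C26 scrambled-shRNA, place 123 from the lowest of all 25206 genes, and 2.99-fold lower in C26 FoxP1-shRNA than in Sham. Its values on both C26 arrays were below the array median, where folds are uncertain. Ndufb2 had 8.12 in C26 FoxP1-shRNA, 7.78 in C26 scrambled-shRNA and 9.12 in Sham, and was lower than Sham by 2.01-fold in C26 FoxP1-shRNA and by 2.54-fold in C26 scrambled-shRNA. Ndufb10, an intermembrane space subunit, had 7.88 in C26 FoxP1-shRNA, 7.19 in C26 scrambled-shRNA and 8.41 in Sham, and Ndufb8 had 8.14 in C26 FoxP1-shRNA, 7.48 in C26 scrambled-shRNA and 8.60 in Sham. In C26 scrambled-shRNA, Ndufb10 was thus 2.33-fold and Ndufb8 was 2.16-fold below Sham. The others were Ndufb7 (-0.92), Ndufb6 (-0.90), Ndufb5 (-0.57), Ndufb9 (-0.47) and Ndufb11 (-0.20), the last an X-linked gene. The 250 bases before the RefSeq start (GRCm38.p6) are shown for the 3 subunits with the lowest C26 scrambled-shRNA over Sham difference among those in the promoter table, so that the sequences upstream of the genes that stood farthest from Sham can be read; capitals mark the matches found to the motifs described further on, an AAGGTCA in Ndufb2 and a CAGCTG in Ndufb10, and Ndufb3 has none.
Ndufb3, chr1:58586147-58586396, plus strand: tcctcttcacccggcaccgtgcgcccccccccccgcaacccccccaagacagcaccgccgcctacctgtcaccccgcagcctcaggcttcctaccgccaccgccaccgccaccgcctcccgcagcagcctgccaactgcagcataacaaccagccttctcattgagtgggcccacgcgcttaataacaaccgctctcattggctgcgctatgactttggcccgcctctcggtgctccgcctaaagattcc
Ndufb2, chr6:39592315-39592564, plus strand: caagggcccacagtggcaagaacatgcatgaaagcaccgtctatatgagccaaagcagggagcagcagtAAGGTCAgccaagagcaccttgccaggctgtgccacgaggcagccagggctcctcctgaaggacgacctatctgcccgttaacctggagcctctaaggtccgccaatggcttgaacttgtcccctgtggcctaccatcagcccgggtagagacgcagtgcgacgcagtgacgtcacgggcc
Ndufb10, chr17:24724424-24724673, minus strand: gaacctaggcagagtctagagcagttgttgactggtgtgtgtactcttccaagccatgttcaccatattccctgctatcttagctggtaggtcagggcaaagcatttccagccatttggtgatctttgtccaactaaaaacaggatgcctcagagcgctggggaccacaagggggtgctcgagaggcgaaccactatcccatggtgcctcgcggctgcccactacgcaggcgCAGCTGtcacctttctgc

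Ndufab1, the mitochondrial acyl carrier protein, is both a subunit of complex I and a carrier in mitochondrial fatty acid synthesis. It had log2 values of 6.53 in C26 FoxP1-shRNA, 6.22 in C26 scrambled-shRNA and 7.37 in Sham, and was 2.23-fold below Sham in C26 scrambled-shRNA. In C26 FoxP1-shRNA it stayed closer to C26 scrambled-shRNA (0.31) than to Sham (-0.84). A like-named pseudogene, Ndufab1-ps, makes this value uncertain.

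The 8 assembly factors named Ndufaf were all below Sham in C26 scrambled-shRNA, 2 by 2-fold or more, with a median log2 difference of -0.80. Ndufaf5, which hydroxylates an arginine of the core subunit Ndufs7, had log2 values of 6.01 in C26 FoxP1-shRNA, 4.87 in C26 scrambled-shRNA and 6.69 in Sham. It was 3.52-fold below Sham in C26 scrambled-shRNA, place 284 from the lowest of all genes, and 2.20 times its C26 scrambled-shRNA value in C26 FoxP1-shRNA. Ndufaf1, which acts in the complex that assembles the membrane arm, had 6.60 in C26 FoxP1-shRNA, 5.77 in C26 scrambled-shRNA and 7.11 in Sham, the same order, 2.52-fold below Sham in C26 scrambled-shRNA and 1.78 times that value in C26 FoxP1-shRNA. Ndufaf7, an arginine methyltransferase of a core subunit, was at a log2 difference of -0.91 between C26 scrambled-shRNA and Sham, Ndufaf6 at -0.90 and Ndufaf2, a paralogue of Ndufa12 that acts late in assembly, at -0.70. The partners Ndufaf3 (-0.37) and Ndufaf4 (-0.35), which act on the quinone module, and Ndufaf8 (-0.33), the partner of Ndufaf5, differed least. Ndufaf8 and Ndufaf5 were thus at opposite ends of the group.

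A list of 11 assembly factors of complex I with other names, of which 10 were measured, was set beside them. Of these, 7 were below Sham in C26 scrambled-shRNA and 3 higher, 0 by 2-fold, with a median log2 difference of -0.42. The lowest was Timmdc1, a membrane arm assembly factor, at -0.98, and the highest Nubpl, an iron-sulphur protein needed for assembly, at 0.15. Outside complex I, the complex IV subunit Ndufa4 had log2 values of 10.56 in C26 FoxP1-shRNA, 10.28 in C26 scrambled-shRNA and 10.73 in Sham. Ndufa4l2, known as a target of hypoxia-inducible factor, had 5.72 in C26 FoxP1-shRNA, 5.44 in C26 scrambled-shRNA and 6.05 in Sham. Both paralogues therefore had the order seen for most subunits, with log2 differences between C26 scrambled-shRNA and Sham of -0.44 for Ndufa4 and -0.60 for Ndufa4l2.

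The second comparison asks how the FoxP1 hairpin alters muscle that bears a tumour, and here 42 of 43 members were higher in C26 FoxP1-shRNA than in C26 scrambled-shRNA, against 44.8% of all genes. Only Ndufaf5 reached 2-fold, 1 of 43 members (2.33%), against 1.44% of all genes, so that the share at that size was near the background. The median log2 difference was 0.34 over the members and 0.37 over the subunits, against -0.03 over all genes. This comparison and the first share the C26 scrambled-shRNA array, and an error of that array would move them in opposite directions, so that they are given side by side and not set against each other. By role, the medians were 0.31 for the core, 0.37 for the matrix arm, 0.39 for the inner membrane arm, 0.59 for the distal membrane arm and 0.28 for the Ndufaf factors. After Ndufaf5 the highest members were Ndufb3, at 1.98 times its C26 scrambled-shRNA value, and Ndufaf1, at 1.78 times. At the low end, next to Ndufs3, were Ndufaf8 with a log2 difference of 0.13 and Ndufb9, a subunit that binds the acyl carrier protein, with 0.15. Ndufb9 had 11.12 in C26 FoxP1-shRNA, 10.97 in C26 scrambled-shRNA and 11.44 in Sham.

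**Figure D2:**
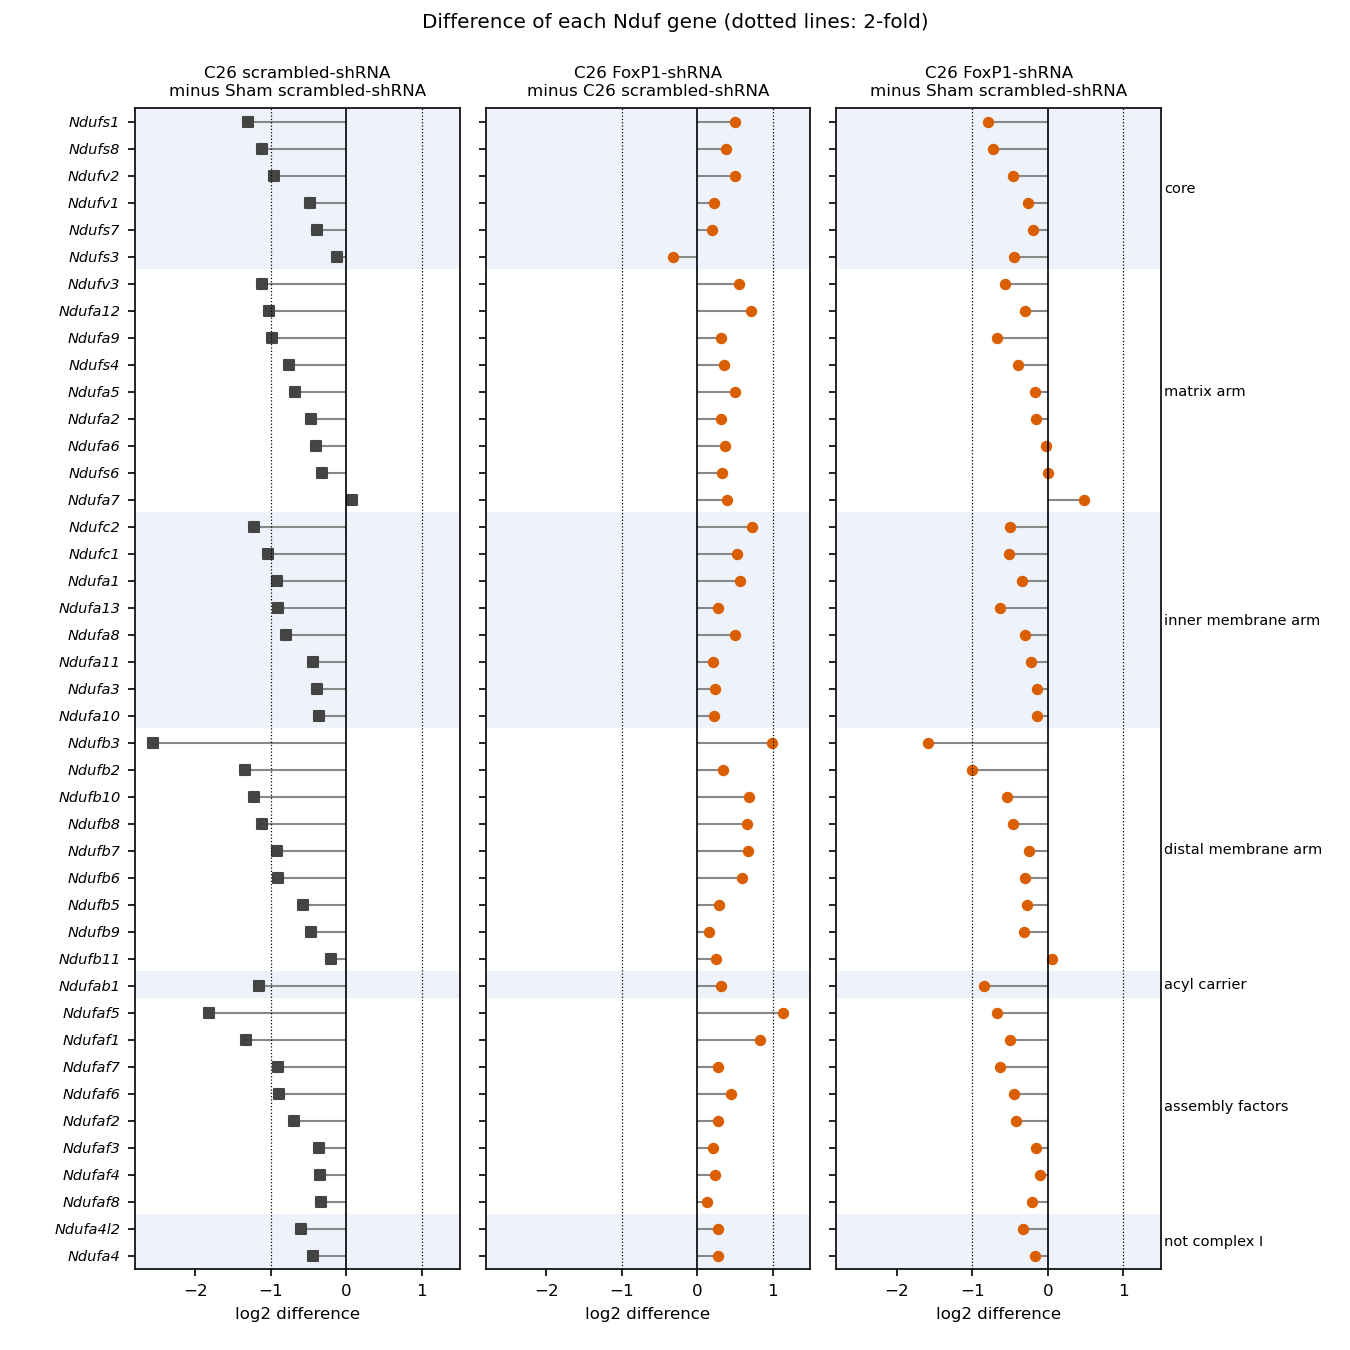
Log2 difference (x axis) of each Nduf gene, by role, for C26 scrambled-shRNA minus Sham (left), C26 FoxP1-shRNA minus C26 scrambled-shRNA (middle) and C26 FoxP1-shRNA minus Sham (right), with 1 pooled array per group and no error bars. The 13 genes at or left of the dotted line at -1 in the left panel are lower by 2-fold or more, and in the middle panel Ndufs3 (-0.32) is the only gene left of 0.

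C26 FoxP1-shRNA was also set against Sham, which compares tumour-bearing muscle with the hairpin against tumour-free muscle with the scrambled vector. Here 40 of 43 members were lower in C26 FoxP1-shRNA, against 50.5% of all genes, and 2 were lower by 2-fold or more (4.65%, against 2.17% of all genes). These were Ndufb3 and Ndufb2, both of the distal membrane arm. The shares by level in Sham, given further on, were not above those of all genes except under 7. The median log2 difference was -0.33 over the members, against a value of -0.004 over all genes. By role it was -0.45 for the core, -0.17 for the matrix arm, -0.32 for the inner membrane arm, -0.31 for the distal membrane arm and -0.43 for the Ndufaf factors. The next lowest member was Ndufab1 at -0.84. The 3 members that were not lower were Ndufa7 (0.48), Ndufb11 (0.05) and Ndufs6 (0.01), of which Ndufs6 has a like-named pseudogene and is uncertain. Ndufb11 had 6.92 in C26 FoxP1-shRNA, 6.67 in C26 scrambled-shRNA and 6.87 in Sham, a span smaller than that of any other distal subunit.

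Most members are bright on these arrays, and bright genes as a whole were lower in C26 scrambled-shRNA, so that the counts were also taken by level in Sham, a split added after the values were seen. Of 649 genes with a Sham log2 value of 9 or higher, 20.5% were lower in C26 scrambled-shRNA by 2-fold or more, with a median log2 difference of -0.31. The 19 members in this band had 5 such genes (26.3%), a share near that of the band, and a median of -0.76. Between 7 and 9, 6 of 12 members (50%) were lower by that size against 12.3% of 2640 genes, with medians of -1.02 and -0.12. Under 7, it was 2 of 12 members (16.7%) against 2.89% of 21917 genes, with medians of -0.52 and 0.05. The median of the members was below that of all genes in each band. For C26 FoxP1-shRNA over C26 scrambled-shRNA the brightest band had a median of 0.34 for the members and 0.20 for all genes, so that part of the gap to the whole table is shared by bright genes generally. For C26 FoxP1-shRNA over Sham, 1 of 19 members (5.26%) in the brightest band was lower by 2-fold or more, against 8.01% of its genes. Between 7 and 9 it was 0 of 12 members against 4.73%. Under 7 it was 1 of 12 (8.33%) against 1.69%, through the dim gene Ndufb3. The medians in this comparison, brightest band first, were -0.31, -0.48 and -0.37 for the members and -0.11, -0.03 and 0 for all genes.

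**Figure D3:**
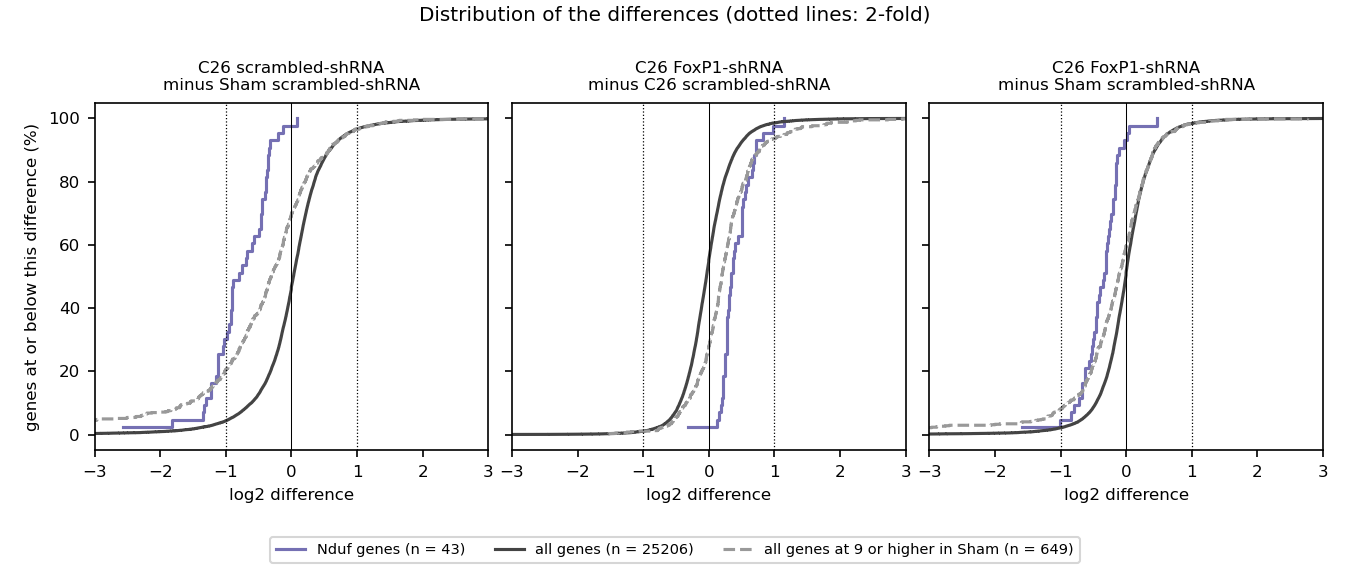
Cumulative share of genes (y axis, %) at or below each log2 difference (x axis, shown between -3 and 3) for the 43 Nduf genes, all 25206 genes and the 649 genes at 9 or higher in Sham, in the 3 comparisons. In C26 scrambled-shRNA minus Sham the Nduf curve, with a median of -0.80, lies left of that of all genes (0.03), and the bright genes (-0.31) lie between them except at the low end, below the dotted line at -1, where they cross the Nduf curve.

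The other complexes of oxidative phosphorylation give a second yardstick. Of the listed subunits, 4 of 4 of complex II, 8 of 9 of complex III and 12 of 13 of complex IV were measured. ATP synthase had 10 of 15, and Ndufa4 was counted with the Nduf genes. Over 34 subunits of complexes II to V, 33 were below Sham in C26 scrambled-shRNA and 5 were lower by 2-fold or more (14.7%), with a median log2 difference of -0.69, beside 11 of 33 (33.3%) and -0.90 for the complex I subunits. The difference between these lists was not tested. In complex II, which feeds electrons from succinate, the median was -0.88 and the lowest gene Sdhd (-1.01). In complex III it was -0.73, with Cyc1, cytochrome c1, lowest at -1.54. Complex IV had a median of -0.50, with the muscle isoform Cox7a1 lowest at -1.34 and Cox8a, at 0.56, the only one of the 34 genes that was higher. In ATP synthase it was -0.60, with Atp5g3 (-1.02) and Atp5k (-1.01) past 2-fold. In C26 FoxP1-shRNA over C26 scrambled-shRNA, 31 of the 34 were higher, with a median of 0.27 beside 0.37 for the complex I subunits. In C26 FoxP1-shRNA over Sham, the medians were -0.39 for complexes II to V and -0.31 for complex I.

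**Figure D4:**
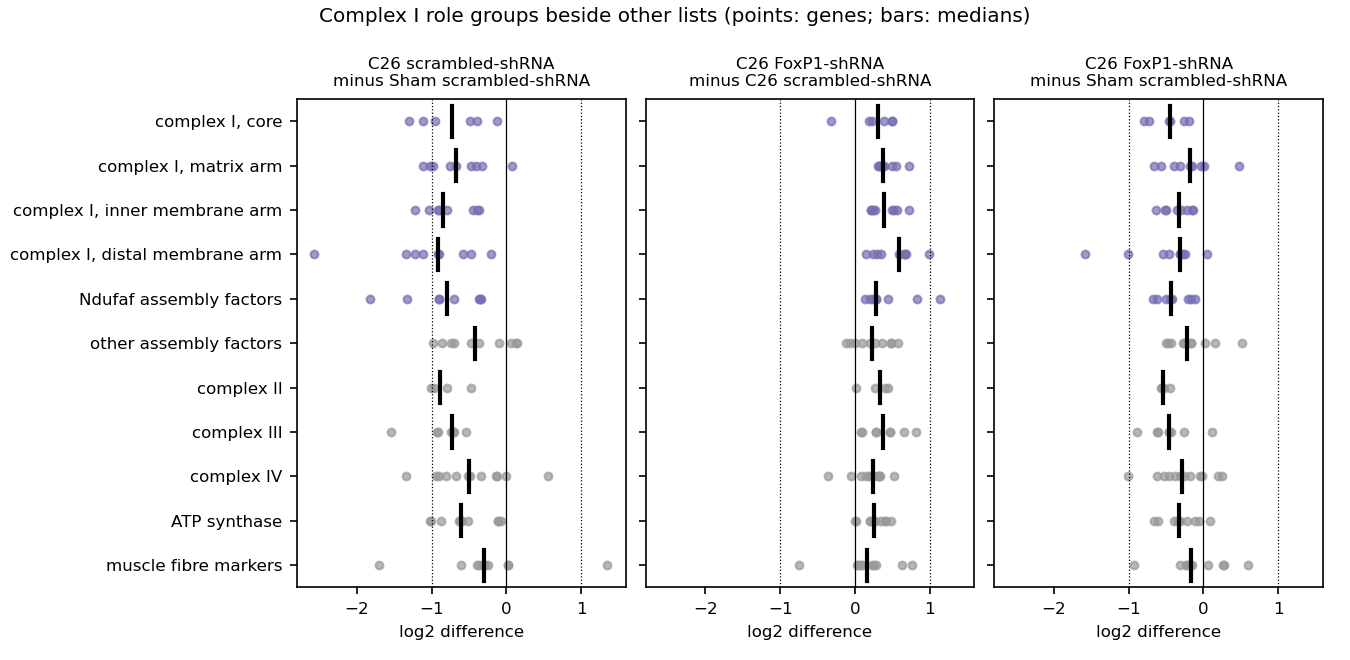
Log2 difference (x axis) of each gene (points) and the median (bar) for role groups of complex I, assembly factors, complexes II to IV, ATP synthase and muscle fibre markers, in the 3 comparisons. The distal membrane arm has a median of -0.92 in C26 scrambled-shRNA minus Sham and of 0.59 in C26 FoxP1-shRNA minus C26 scrambled-shRNA, and the fibre markers have medians of -0.30 and 0.16.

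Lists of markers of the cell types in the muscle were also compared between the arrays. Their linear values were summed by list, and the brightest genes weigh most in such a sum. The 10 fibre markers had a sum of 28018 in C26 FoxP1-shRNA, 24797 in C26 scrambled-shRNA and 31758 in Sham, and 7 of 10 were below Sham in C26 scrambled-shRNA, with a median log2 difference of -0.30. Pvalb was lowest at -1.71, and the 3 exceptions were Myh7 (1.34), Myh1 (0.02) and Des (0.02). Myh7 was dim, at 4.06 in C26 scrambled-shRNA and 2.71 in Sham, so that its fold is uncertain. The 7 neutrophil markers summed to 225 in C26 FoxP1-shRNA, 318 in C26 scrambled-shRNA and 64.2 in Sham, none of them above the array median in Sham. Of these, 6 were above Sham in C26 scrambled-shRNA, Ly6g being the exception with a log2 difference of -0.14. The 5 fibroblast markers summed to 1884 in C26 FoxP1-shRNA, 1647 in C26 scrambled-shRNA and 3027 in Sham, and 4 of 5 were below Sham in C26 scrambled-shRNA, Pdgfra being the exception at 0.21. The 5 T cell markers summed to 40.2 in C26 FoxP1-shRNA, 83.9 in C26 scrambled-shRNA and 162 in Sham, and all 5 were below Sham on both C26 arrays. Above the array median were 0 of them in C26 FoxP1-shRNA, 1 in C26 scrambled-shRNA and 4 in Sham, so that the sums on the C26 arrays are uncertain. Between the C26 arrays 3 were lower with the hairpin, Cd3e most (-2.43), and 2 higher, with a median log2 difference of -0.16. The 6 macrophage markers summed to 373 in C26 FoxP1-shRNA, 717 in C26 scrambled-shRNA and 517 in Sham. Their sum and median ran in opposite directions in C26 scrambled-shRNA over Sham, since Cd68 (1.77) and Itgam (0.93) were higher while Adgre1 (-1.41), Csf1r (-0.82) and C1qa (-0.77) were lower, and the median log2 difference was -0.34. The 3 erythroid markers measured of 6 listed summed to 300.04 in C26 FoxP1-shRNA, 122 in C26 scrambled-shRNA and 78.9 in Sham. All 3 were higher in C26 FoxP1-shRNA than in C26 scrambled-shRNA, with a median log2 difference of 1.24, the value of Hbb-bs. Hbb-bs had log2 values of 2.81 in C26 FoxP1-shRNA, 1.58 in C26 scrambled-shRNA and 2.40 in Sham, all below the array median, where folds are uncertain. In C26 scrambled-shRNA over Sham, Hbb-bs was lower (-0.83), while Alas2 (0.53) and Slc4a1 (1.39) were higher. Alas2, the erythroid enzyme of heme synthesis, was 2.76 times its C26 scrambled-shRNA value and 3.99 times its Sham value in C26 FoxP1-shRNA. The 5 endothelial markers summed to 1246 in C26 FoxP1-shRNA, 1266 in C26 scrambled-shRNA and 1331 in Sham. The 4 adipocyte markers measured of 5 listed summed to 708 in C26 FoxP1-shRNA, 901 in C26 scrambled-shRNA and 906 in Sham. In C26 scrambled-shRNA over Sham the endothelial median was -0.05, with 2 of 5 higher and Kdr lowest (-1.03). The adipocyte median was -0.02. The part of these cells in the values of the complex I genes was not tested.

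The promoters of the members were searched for short motifs because the data bear on genes that were lower together. RefSeq (GRCm38.p6) windows of 300 bases, 250 before and 50 after the start, were matched for 38 of the 43 members. The window is that of the promoter table, the motifs were chosen with earlier results of these data known, and the share over protein-coding genes and the sites shown were chosen after the matches and values were seen. A motif of YY1, a zinc finger factor known for sites just inside genes of mitochondria and ribosomes, written AAGATGGC and searched on both strands, was found in 8 of 38 members (21.1%) and in 3.18% of all 26994 genes of the table, or 3.56% of its protein-coding genes. In all 8 it lay on the coding strand, with its first base 11 to 39 bases in, counting the first transcribed base as 1. Of all matches in such windows of all genes, 40.3% began after the start. The strand of those matches was not counted, so that the strand of the 8 has no background beside it. The motif holds the letters ATG, and whether it spans the start codon of these genes was not tested. The 8 sites are shown with up to 10 bases on either side, fewer where the window ends, and the motif in capitals, to show their common form.
Ndufa3, chr7:3617385-3617412, plus strand: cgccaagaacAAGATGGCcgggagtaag
Ndufa9, chr6:126849098-126849125, minus strand: attgtgggagAAGATGGCggccgccgtc
Ndufaf8, chr11:120098934-120098961, plus strand: ggcagggcccAAGATGGCggcgccctcg
Ndufb8, chr19:44555393-44555414, minus strand: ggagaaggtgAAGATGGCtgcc
Ndufc1, chr3:51408916-51408943, minus strand: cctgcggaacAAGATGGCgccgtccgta
Ndufs4, chr13:114388045-114388069, minus strand: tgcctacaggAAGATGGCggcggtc
Ndufs6, chr13:73328433-73328459, minus strand: ggtcaccggcAAGATGGCggcggtgct
Ndufs7, chr10:80249463-80249490, plus strand: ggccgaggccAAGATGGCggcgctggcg

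The 8 members with this motif had C26 scrambled-shRNA over Sham differences between -1.11 and -0.33, with a median of -0.57, and the 30 without it a median of -0.90. The lowest members of this comparison, Ndufb3 and Ndufaf5, were not among those with the motif. NRF1 is a factor known to drive genes of the respiratory chain, and the core of its site, written GCATGCGC, was searched on both strands. It was found in 3.05% of all genes, 3.93% of protein-coding genes and 5 members (13.2%). These were 3 subunits and 2 assembly factors, and the first site of each is shown, with overlapping matches on the 2 strands joined in capitals.
Ndufa11, chr17:56717692-56717721, plus strand: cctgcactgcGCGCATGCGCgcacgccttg
Ndufa6, chr15:82354357-82354384, minus strand: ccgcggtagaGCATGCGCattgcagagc
Ndufa8, chr2:36049329-36049356, minus strand: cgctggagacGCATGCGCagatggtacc
Ndufaf4, chr4:24897960-24897989, plus strand: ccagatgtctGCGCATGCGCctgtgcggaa
Ndufaf5, chr2:140170652-140170681, plus strand: agtcccgttgGCGCATGCGCctaatagaaa

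Ndufaf5, the assembly factor farthest from Sham, was among them, and so was Ndufaf4, which differed little, and the median difference of the 5 was -0.44 against -0.91 for the other 33. Of the other motifs, CCGGAAG, an ETS site, was found in 6 members (15.8%) against 9.92% of all genes and 12.9% of protein-coding genes, a share near that of the members. CAGCTG, an E-box, was found in 3 members (7.89%) against 18.3% of all genes. The letters AAGGTCA, bound by estrogen-related receptors, was found in Ndufb2 alone (2.63%, against 5.39%), and a FOX site, TGTTTAC, in Ndufaf1 alone (2.63%, against 4.05%). The MEF2 core TAAAAATA was found in 0 of 38 members and 3.10% of all genes. Such matches are letters in a window and say nothing of binding, and motifs outside the window or in other forms were not searched. In the members, no match of one motif overlapped a match of another.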

How the data were processed

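RNA of pooled tibialis anterior muscle was measured on 3 Mouse Gene ST arrays, 1 per group. The authors made the deposited log2 values with RMA in affy 1.36.1 under R 2.15.1 (submitters' processing notes), with 1 value per Entrez gene, so that background correction, quantile normalization and summarization preceded deposit; quantile normalization makes array distributions alike and can hide a shift of all genes. Neither the genome build behind the mapping nor the set of arrays normalized together is given in the sources used here. Differences of log2 values were computed with Python 3.11.15, numpy 2.4.6 and pandas 2.3.3 without a filter on dim genes, and checked on simulated data. Symbols came from the platform annotation (23185 genes with 1 symbol, 2021 unnamed here). Members and lists were chosen with earlier results of these data known. Genes named were those at or past 2-fold, the lowest and highest of each role group and comparison, Ndufa4 and Ndufa4l2; other members are named to account for all. The alternatives were 4 scalings (limma 3.58.1 under R 4.3.3 for loess), a filter on dim genes, subunits only, sizes of 1.5-fold and 3-fold, and the mean. Promoters came from RefSeq, and Ndufa11, Ndufa12, Ndufab1 and Ndufs6 have like-named pseudogenes and are uncertain.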

Additional observations from a re-analysis of the deposited data

How the results depend on the processing

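No paired analysis was possible because each group is 1 array. With 1 pooled array per group, no value has an error. The direction of each median below held under the 4 scalings, the restriction to subunits and the mean. The filter on dim genes kept genes above the array median on at least 1 array. All 43 members passed it through Sham, so it could not alter their counts or medians and is no check of them. For C26 scrambled-shRNA over Sham, the count of 13 members lower by 2-fold was 21 with arrays centred on 8 reference genes, 26 at 1.5-fold and 2 at 3-fold. The median of -0.80 was -0.94 with that centring and -0.90 over subunits only. Centring on reference genes moved the median of all genes by -0.14, and split the genes at 2-fold into 1489 lower and 626 higher, against 1092 lower and 843 higher as deposited. Relative to all genes, the members' median lay between -0.83 and -0.79 under the 4 scalings. For C26 FoxP1-shRNA over C26 scrambled-shRNA, the count of 1 member higher by 2-fold was 2 with median centring, 2 with quantile normalization, 2 with cyclic loess, 2 with reference genes, 0 over subunits only, 9 at 1.5-fold and 0 at 3-fold. For C26 FoxP1-shRNA over Sham, the count of 2 members lower by 2-fold was 1 with median centring, 9 at 1.5-fold and 0 at 3-fold. Dim genes such as Ndufb3 and Ndufaf2 are the least certain.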

Other observations

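A list of 12 regulators of mitochondrial genes was measured beside the members. In C26 scrambled-shRNA over Sham, 4 were lower and 8 higher, with a median log2 difference of 0.18. The coactivator Ppargc1b had log2 values of 5.15 in C26 FoxP1-shRNA, 4.56 in C26 scrambled-shRNA and 5.96 in Sham, the only one past 2-fold in that comparison, with a difference of -1.40. The estrogen-related receptor Esrra had 6.13 in C26 FoxP1-shRNA, 5.68 in C26 scrambled-shRNA and 6.62 in Sham, and its relative Esrrg had 6.04 in C26 FoxP1-shRNA, 5.41 in C26 scrambled-shRNA and 6.21 in Sham. These 3 genes thus had the order of arrays of most complex I genes. The coactivator Ppargc1a did not, with 8.64 in C26 FoxP1-shRNA, 8.87 in C26 scrambled-shRNA and 8.70 in Sham. Nrf1 had 5.77 in C26 FoxP1-shRNA, 6.18 in C26 scrambled-shRNA and 5.47 in Sham, and Yy1 had 6.79 in C26 FoxP1-shRNA, 7.16 in C26 scrambled-shRNA and 6.80 in Sham. Nrf1 and Yy1 were thus highest in C26 scrambled-shRNA, as were all the other regulators that were higher there than in Sham. Of the 8 reference genes, 6 were also above Sham in C26 scrambled-shRNA. The nuclear receptor Ppara was lower in C26 FoxP1-shRNA than in C26 scrambled-shRNA with a log2 difference of -1.11. No relation between a regulator and the members was tested.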
